A study of Homo sapiens with 2 samples.

Results

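Olfactory receptor genes lie side by side in clusters on many human chromosomes, and 14 of these clusters on 9 chromosomes were examined for peaks of brachyury ChIP-seq in MDA-MB-231 cells, a cell line from a human breast cancer. A peak belonged to a cluster when its midpoint lay within fixed limits on the hg19 build of the genome, which were given by position and not by any value of the peaks. By this rule 74 of 10342 peaks in the deposited list (0.716%) were members, on 14.5 Mb of sequence in all. The rest of the same 9 chromosomes carried 4208 peaks.

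The series holds 2 libraries from MDA-MB-231 cells without any stated treatment, one labelled with the name of the line alone and one labelled as input with no antibody. From the methods, the antibody was raised against brachyury (the product of TBXT, a T-box transcription factor), and the cells were wild type. Both libraries were turned into 1 peak list, so there were no replicates, the reads are not in the list and the depth is unknown. The error bars below are therefore counting intervals for peaks, which treat peaks as independent.

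Olfactory receptors are G protein-coupled receptors of the sensory neurons of the nose. An odorant that binds its receptor activates the G protein subunit GNAL, then the adenylyl cyclase ADCY3, and the cyclic AMP opens a channel built from CNGA2, CNGA4 and CNGB1. A neuron usually expresses a single receptor gene, and the clusters are kept in closed chromatin in most other tissues. The question of whether brachyury peaks gathered in them comes from the study, which names olfactory transduction among the pathways shown with its ChIP-seq results. Receptor genes carry names such as OR1A1 or OR52B4, where the first number gives the family. The clusters are called here by their cytogenetic band.

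In RefSeq, 392 protein-coding genes carry an olfactory receptor name, and 305 of them (77.8%) fall into the 14 runs of neighbouring genes that correspond to the clusters by name and band. The same runs hold 227 receptor pseudogenes or other non-coding receptor loci and 111 coding genes of other kinds. The largest run, from OR52B4 to OR2D3 at 11p15, has 63 coding receptor genes, and it encloses the beta-globin genes, with HBB next to OR51V1 and HBE1 next to OR51B4. The run at 17p13, from OR1D5 to OR1E2, has 11 coding receptor genes and no other coding gene, and that at 12q13, from OR9K2 to OR10P1, has 15 and no other. RefSeq gives gene positions on another build (GRCh38), so gene order was used for names only and no peak was assigned to a gene.

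The binding sequence of brachyury was also looked for in the promoters of the receptor genes, a description that does not use the peaks. It covers short windows at gene starts, inside and outside the clusters, and cannot show whether peaks gathered in the clusters. The T-box half-site, searched as the letters TCACACCT on both strands (AGGTGTGA on the other), was found in 1 of 326 promoters of coding olfactory receptor genes (0.307%, Wilson 95% interval 0.0542 to 1.72). Among 22199 promoters of all protein-coding genes, 206 held it (0.928%, 0.810 to 1.06), so the intervals overlapped. The promoter windows covered 250 bases before and 50 bases after the start of the gene. The single receptor promoter with the half-site was that of OR8A1, the last gene of the run at 11q24, and it was picked out after the search. It is shown as the sequence that carries this result, with the half-site in capitals, 245 bases before the start, on the plus strand of GRCh38.p14 at chr11:124569747-124570046. This position is on a different build from the peaks and cannot be set against them.

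OR8A1 promoter: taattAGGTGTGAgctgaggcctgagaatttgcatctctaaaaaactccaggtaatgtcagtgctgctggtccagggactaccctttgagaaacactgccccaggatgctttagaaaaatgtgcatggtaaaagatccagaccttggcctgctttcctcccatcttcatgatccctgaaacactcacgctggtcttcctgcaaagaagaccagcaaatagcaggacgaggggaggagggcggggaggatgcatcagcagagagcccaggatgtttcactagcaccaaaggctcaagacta

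The shorter core of the site, ACACCT on either strand, which is part of the half-site, was found in 30 of the 326 receptor promoters (9.20%, Wilson 95% interval 6.52 to 12.8) and in 2387 of the 22199 promoters of all coding genes (10.8%, 10.4 to 11.2). The receptor promoters were poor in G and C, with a median of 37.7% and an interquartile range from 33.8 to 43.0%, against 62.3% and 53.0 to 70.0% in all coding genes. Promoters of neighbouring receptor genes are often copies of each other and are not independent. Of the signalling genes behind the receptors, 9 of 10 had promoters in RefSeq, and none of their 20 promoters held the half-site (0%, Wilson 95% interval 0 to 16.1), while 3 held the core. These genes were GNAL, ADCY3, CNGA2, CNGA4, CNGB1, the chloride channel ANO2, the phosphodiesterase PDE1C and the receptor transporters RTP1 and RTP2. A match describes the letters of a promoter and is not a site bound in these cells.

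Every one of the 14 clusters, which ran from 0.3 to 2.6 Mb, held at least 1 peak, and of 2908 segments of about 1 Mb outside the clusters only 347 held none. At the densities of the rest of their chromosomes, 58.5 peaks would have been expected in the clusters, and 74 were found, a ratio of 1.26 (exact Poisson 95% interval 0.992 to 1.59). The interval held 1, so the excess was not larger than counting error. Neighbouring peaks cluster along these chromosomes, where the squared deviation of 1196 segments of about 1 Mb was 1.59 times the counting variance, and with this factor the interval was 0.940 to 1.59. The density lay above that of the rest of the chromosome in 9 clusters and below it in 5. When only peaks at or above the median score of the list were counted, the ratio was 1.45 (exact Poisson 95% interval 1.04 to 1.96). This last interval was not widened for the clustering of peaks.

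The immediate surroundings gave a larger ratio than the chromosome. The flanks were up to 5 Mb on each side, cut at the first and last peak of the chromosome and without other clusters. At 1q44 they came to 5 Mb in all, at 14q11 to 5.47 Mb and at 17p13 to 7.32 Mb. In these flanks, where 371 peaks were found, the density taken over all clusters was lower, so that only 48.1 peaks would have been expected inside. The ratio to the flanks was 1.54, with a 95% interval of 1.18 to 2.0 that includes the counting error of the flanks but not the clustering of peaks. Long stretches without any peak were not taken out of the flanks. Above the distal cluster at 19p13, for example, the nearest peak was 2899 kb away. Chromosome 11 held such a stretch too, since taking out empty intervals of over 3 Mb raised the expected count of 11q11 from 7.62 to 7.87. Whether that stretch lay in the flanks was not examined. Any such stretch in a flank lowers the flank density and raises the ratio, and a ratio to flanks without them was not computed. The clusters were denser than their flanks in 11 of 14 cases. The flank density was 3.59 per Mb at 11p15, 3.60 per Mb at 6p22 and 1.5 per Mb at 12q13. Each was below that of the rest of its chromosome, but low flanks were not found everywhere. At 9q31 (5.10 per Mb), 9q33 and 14q11 the flanks were denser than both the cluster and the chromosome. At 1q44 and 17p13 the flanks were denser than the chromosome but not than the cluster. The excess over the chromosome was small at 14q11 and 17p13. In the remaining clusters the flanks were less dense than the chromosome.

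**Figure D1:**
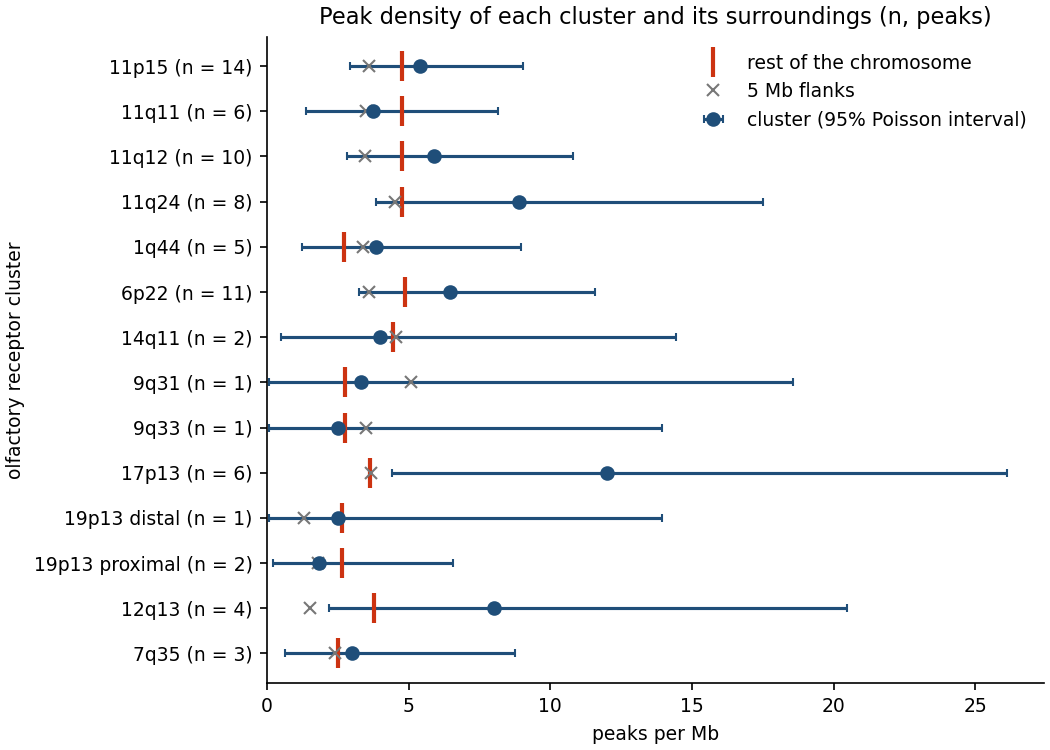
Peaks per Mb in each of the 14 olfactory receptor clusters (points, with exact Poisson 95% intervals), in the rest of the same chromosome (red bars) and in the flanks of up to 5 Mb on each side (crosses). The interval of the 17p13 cluster alone lies clear of the density of its chromosome, at 12 against 3.64 peaks per Mb.

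Cluster by cluster, an exact two-sided binomial test set the count against the share of the chromosome, and the p-values were adjusted together with those of all segments of about 1 Mb on the list. None of the 14 clusters passed an adjusted p of 0.05, but neither did any of the 2922 segments (0.0% higher and 0.0% lower), the smallest adjusted p of any segment being 0.0748. At an unadjusted p under 0.05, 1 cluster was higher and 0 were lower, against 5.95% of all segments higher and 2.12% lower. A single cluster of 14 at this level is close to that background. In 9 of the clusters not even a count of 0 peaks would have given a p under 0.05, so the test could find a shortage only in the other 5.

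The cluster past the unadjusted threshold was 17p13, whose genes belong to families OR1 and OR3. It held 6 peaks on 0.5 Mb, or 12 per Mb (exact Poisson 95% interval 4.40 to 26.1), against 3.64 per Mb on the rest of chromosome 17. The ratio was 3.29 (exact 95% interval 1.20 to 7.26, exact binomial p = 0.011, adjusted p = 0.41). It was the densest of the clusters, and it is singled out here for that reason. The peaks began 229 kb into the cluster and followed each other within 189 kb. The first, chr17:3128252-3129577, had the highest score of the cluster, 100.87. The scores are those of the peak caller, -10 x log10 of the p-value of a peak, and begin at 50. The others were chr17:3203144-3203903 with a score of 52.56, chr17:3253040-3254156 with 57.48, chr17:3285859-3286576 with 67.81, chr17:3288519-3289514 with 57.07 and chr17:3317114-3317805 with 80.55. The peaks scoring 67.81 and 57.07 were only 1.94 kb apart, the shortest gap in any of the clusters. Among 158 windows of 0.5 Mb on the rest of chromosome 17, 157 held fewer peaks, 1 held as many and 0 held more. With the grid of windows moved by 0.25 Mb, 2 windows held more.

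The cluster at 12q13, where the OR6C genes lie, was the one that stood out most from its flanks. It held 4 peaks on 0.5 Mb, or 8.00 per Mb (exact Poisson 95% interval 2.18 to 20.5). This was 2.13 times the density of the rest of chromosome 12 (exact 95% interval 0.577 to 5.48, exact binomial p = 0.12) and 5.33 times that of its flanks (exact 95% interval 1.29 to 16.7, exact binomial p = 0.011, adjusted p = 0.80). The peaks at chr12:55568122-55569036, chr12:55629562-55630498, chr12:55667140-55668155 and chr12:55716662-55717298 scored 62.84, 60.42, 69.39 and 69.82. Their scores all exceeded the median of the list, 58.8, and their midpoints lay within 148 kb. Of 264 windows of the same width on the rest of the chromosome, 16 held more peaks and 28 as many.

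Chromosome 11 carries 4 of the clusters, 6.8 Mb in all, and gave 38 of the 74 members. At the density of the rest of the chromosome, 4.76 per Mb, 32.4 would have been expected, a ratio of 1.17 (exact Poisson 95% interval 0.830 to 1.61). The interval held 1 for the 4 together and for each of them alone. The densest was 11q24, with families OR8 and OR10 among others, where 8 peaks gave 8.89 per Mb (exact Poisson 95% interval 3.84 to 17.5, exact binomial p = 0.085, adjusted p = 0.68). Its first peak, chr11:123742893-123743897, stood alone with a score of 50.2, and the other 7 lay within 360 kb. Their scores ran from 51.15 to 80.77, and the highest belonged to chr11:124302340-124303452. Of 137 windows of 0.9 Mb on the rest of the chromosome, 125 held fewer peaks than 11q24 and 5 held more.

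At 11p15, the cluster of the OR51, OR52 and OR56 families, 14 peaks were spread over 2.6 Mb at 5.38 per Mb (exact Poisson 95% interval 2.94 to 9.03). This was close to the chromosome (ratio 1.13, exact 95% interval 0.614 to 1.91). The peak with the highest score, 88.36, was chr11:4891447-4893303, which at 1857 bp was also the widest member of all. The second, chr11:6495563-6496506, scored 81.41. The longest stretch without a peak was 434 kb, near the start of the cluster.

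At 11q12, 10 peaks on 1.7 Mb gave 5.88 per Mb (exact Poisson 95% interval 2.82 to 10.8). The highest score there was 97.91, at chr11:58539920-58541597, and 3 more peaks followed within 88.0 kb. The cluster at 11q11, where families OR4, OR5 and OR8 lie, was the only one on chromosome 11 below the density of the chromosome, with 6 peaks on 1.6 Mb or 3.75 per Mb (exact Poisson 95% interval 1.38 to 8.16). It nevertheless held the member with the highest score of all, 117.34, at chr11:55644292-55645278. Its lowest, chr11:55779373-55780381, scored exactly 50. The last 592 kb of the cluster held no peak.

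**Figure D2:**
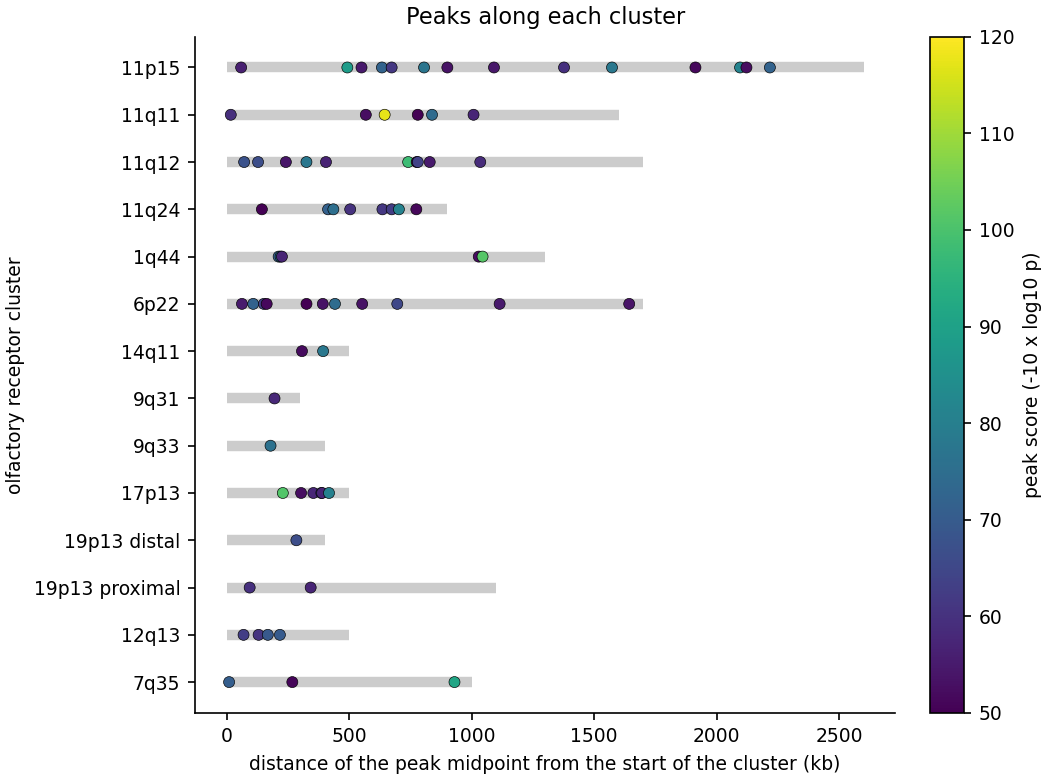
Midpoints of the 74 member peaks along each cluster, as distance in kb from the start of the cluster (grey bar, length of the cluster), coloured by score. The 6 peaks of 17p13 sit within 189 kb of their cluster, and those of 1q44 form 2 tight groups 803 kb apart.

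At 6p22, next to the major histocompatibility complex, 11 peaks on 1.7 Mb gave 6.47 per Mb (exact Poisson 95% interval 3.23 to 11.6), 1.32 times the rest of chromosome 6 (exact 95% interval 0.659 to 2.38). The first 700 kb held 9 of them and the remaining 1000 kb held 2. This cut was made after the positions had been seen. In RefSeq order the run from OR2B2 to OR2H2 holds 16 coding receptor genes and 19 other coding genes, so it is not made of receptor genes alone. The highest score was 74.37, at chr6:28341323-28342372, and the median of the cluster, 54.7, was the lowest among the 14.

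At 1q44, where the OR2 family is prominent, the 5 peaks fell into 2 groups. In the first, 3 peaks of scores 71.28, 77.79 and 57.01, had midpoints within 13.4 kb, and after 803 kb came chr1:248628460-248629478 with 52.28 and chr1:248644125-248644942 with 101.42. The latter was the last peak of chromosome 1 in the list, and 255 kb of the cluster lay beyond it. Over the whole 1.3 Mb the density was 3.85 per Mb (exact Poisson 95% interval 1.25 to 8.98), against 2.71 on the rest of chromosome 1, and up to the last peak it was 4.78 per Mb.

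In the other clusters few peaks were counted, and the interval of the ratio to the chromosome held 1 in each. At 7q35, with OR2A and OR2F genes, 3 peaks on 1 Mb included chr7:143929183-143930598 with a score of 91.11. At 14q11, with OR4K and OR11 genes, the 2 peaks scored 52.09 and 77.92, the higher at chr14:20592833-20593956. The proximal cluster at 19p13, with OR7 and OR10H genes, had 2 peaks on 1.1 Mb, 1.82 per Mb (exact Poisson 95% interval 0.220 to 6.57), the lowest density of the 14. Its higher score, 59.79, belonged to chr19:14993156-14993989, and 757 kb at its end were empty. A single peak was found in each of 3 clusters. At 9q31, with OR13 genes, it was chr9:107394499-107395603 with a score of 57.71. At 9q33, with OR1 genes, it was chr9:125378192-125379327 with 75.85, and in the distal cluster at 19p13, with OR7 genes, it was chr19:9283849-9284687 with 66.62.

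To allow for the uneven spread of peaks, each cluster was set beside all whole windows of its own width on the rest of its chromosome. In 12 of 14 clusters the count lay above the middle of the windows, when windows with as many peaks were divided equally between both sides. The exceptions were 11q11, where 47 of 75 windows held more peaks, and the proximal cluster at 19p13, where 25 of 49 did. A place above the middle is not a density above that of the chromosome. The 12 included 14q11, 9q33 and the distal cluster at 19p13, whose ratios to the chromosome were 0.901, 0.911 and 0.946. Windows without peaks were counted too, and at 9q31 the median window held 0 peaks. Few of the 12 were near the top. Beside 17p13, 11q24 and 12q13, the next was 6p22, where 14 of 98 windows held more. With only peaks at or above the median score counted, 10 of 14 clusters lay above the middle.

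**Figure D3:**
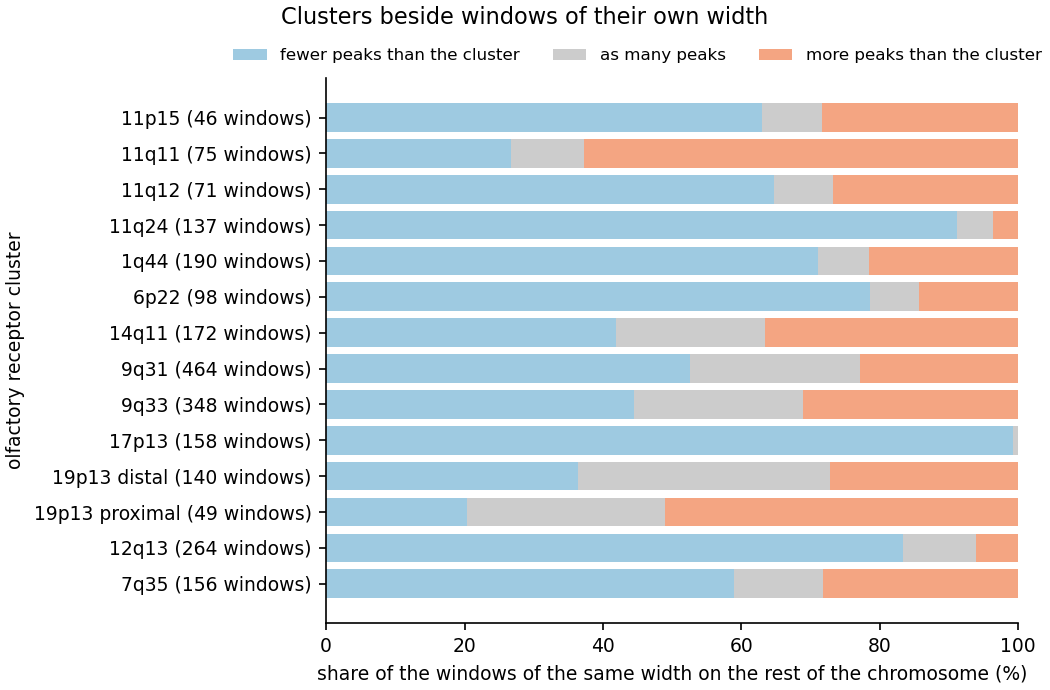
Share of the windows of the same width on the rest of the chromosome that held fewer peaks than the cluster (blue), as many (grey) or more (orange), for each of the 14 clusters. For 17p13, 157 of 158 windows are blue, and for 11q11 and the proximal 19p13 cluster orange stands for 47 of 75 and 25 of 49 windows.

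In height and width the members overlapped widely with other peaks. Members scored 60.9 at the median (interquartile range 54.6 to 72.1), against 58.4 and 53.7 to 67.3 in the 4208 peaks of the rest of the chromosomes. Scores of 60 or more were given to 38 of 74 members (51.4%, Wilson 95% interval 40.2 to 62.4) and to 1870 of the others (44.4%, 42.9 to 45.9), and these intervals overlap. Scores of 100 or more were given to 3 members, 1 each at 11q11, 1q44 and 17p13 (4.05%, Wilson 95% interval 1.39 to 11.3), and to 2.61% of the others (2.17 to 3.14). The rest of the chromosomes reached a score of 894.31, whereas no member exceeded 117.34.

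The median width was 969 bp, with extremes of 579 and 1857 bp, against 951 bp outside. Only 6 members were narrower than 700 bp (8.11%, Wilson 95% interval 3.77 to 16.6), a share like the 7.89% of the others (7.11 to 8.74). They lay in 6 different clusters and scored between 64.95 and 80.55. A width of at least 1500 bp was found in 2 members, the leading peaks of 11p15 and 11q12 (2.70%, Wilson 95% interval 0.744 to 9.33), against 2.73% of the others (2.28 to 3.27). Within clusters, the median gap between neighbouring peaks was 77.5 kb over 60 gaps, against 166 kb on the rest of the chromosomes. Gaps that cross a cluster limit were left out, which shortens the former by construction.

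**Figure D4:**
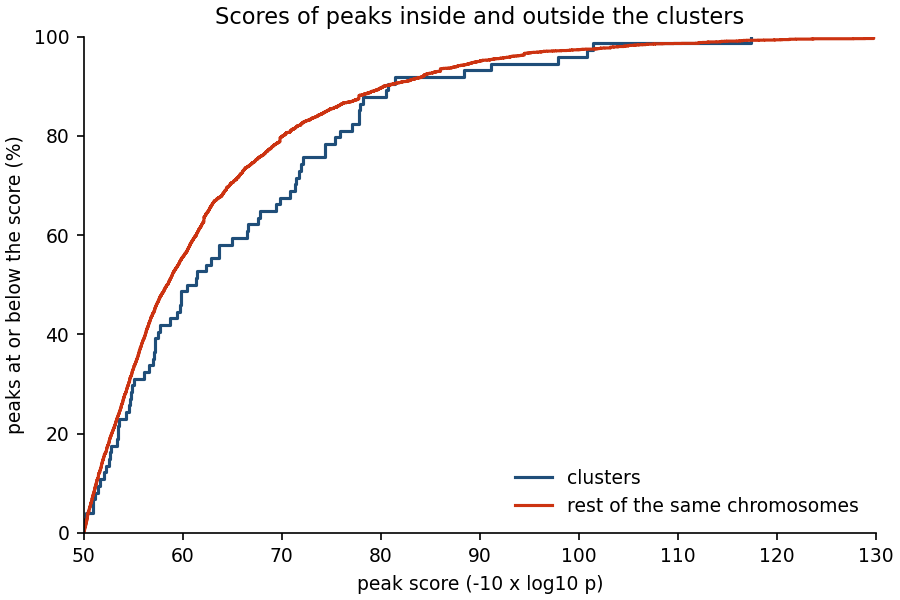
Percentage of peaks at or below each score, for the 74 peaks inside the clusters (blue) and the 4208 on the rest of the same chromosomes (red), up to a score of 130. The blue curve runs below the red one over most of the lower scores, with medians of 60.9 and 58.4.

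The limits of the clusters decided which peaks were members. The peak nearest to a limit on the inside lay a median of 135 kb from it (range 9.57 to 757 kb, 28 limits), with a median score of 64.7. The nearest on the outside lay a median of 164 kb away (range 4.65 to 2899 kb, 27 limits, since no peak followed 1q44), with a median score of 55.8. When each limit was moved outwards by 0.1 Mb, the clusters held 88 peaks against 68.7 expected, and when each was moved inwards by as much they held 64 against 48.2. The ratios were then 1.28 and 1.33, with exact Poisson 95% intervals of 1.03 to 1.58 and 1.02 to 1.70 that lay just above 1. These 2 intervals leave out the clustering of peaks. With the limits unmoved, allowing for it lowered the lower bound from 0.992 to 0.940.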

How the data were processed

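One list of peaks was analysed, which the authors deposited for 1 ChIP library against 1 input library. The authors' score column was taken to hold -10 x log10 p per peak, since peak names identify MACS and the lowest score, 50, is what a limit of 1e-05 gives. The submitters' processing notes name Bowtie2 2.1.0 and hg19. The MACS version and the handling of duplicates are not given in the sources used here. The design text describes another experiment and was not used. Taking the library without the input label as the ChIP library is an inference from the labels.

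The members, lists and tests were chosen with earlier results of these data known. Deposited starts count from 0, and 1 was added. The length of a chromosome was its span from first to last peak. Outside the clusters, each chromosome except Y was cut into segments of 1 Mb, and remainders under 0.5 Mb were dropped. Exact binomial p-values were adjusted by the Benjamini-Hochberg method over all 2922 segments, clusters included. Named peaks are the one with the highest score in each cluster, and all peaks of 17p13 and 12q13 were added after their counts were seen. Other named peaks were also picked after the list had been seen. They are the peak scoring 81.41 at 11p15 and the lowest-scoring peaks of 11q11, 11q24 and 1q44. Promoters came from RefSeq (GRCh38.p14), and OMP of the signalling list had none there. No genome in the build of the list was used here. Computation was in Python 3.11.15 with pandas 2.3.3, scipy 1.17.1 and numpy 2.4.6, by functions tested on simulated lists.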

Additional observations from a re-analysis of the deposited data

How the results depend on the processing

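Against the chromosome, the pooled ratio stayed above 1 in each alternative, from 1.199 without 17p13 to 1.45 for peaks at or above the median score. The lower bound of its Poisson interval lay below 1 in the list as it stands (0.992), without intervals of over 3 Mb that hold no peak (ratio 1.204, bound 0.945), without 17p13 (bound 0.931) and without the clusters of chromosome 11 (ratio 1.38, bound 0.964). The last 2 were chosen after seeing the data. It lay above 1 for peaks at or above the median score (1.04), merged peaks (1.002) and limits moved out (1.03) or in (1.02). None of these bounds was widened for the clustering of peaks. Counting by any overlap left each cluster with the same number of peaks. The cause of these shifts was not tested. Under the 8 alternatives to the list as it stands, 0 clusters passed the adjusted threshold each time, with 1 or 2 at an unadjusted p under 0.05, and the smallest adjusted p ran from 0.14 to 0.80. In 6 clusters (11p15, 11q12, 11q24, 1q44, 17p13 and 12q13) the ratio lay above 1 in all 8, of which 1 used the flanks in place of the chromosome. The ratios of 11q11 and the proximal cluster at 19p13 rose above 1 only against the flanks (1.07 and 1.01). Long stretches without a peak were not taken out of these flanks. Against the chromosome both ratios stayed below 1 throughout. Counting by any overlap, or cutting longer segments outside the clusters, left every ratio as it was. The unadjusted p of 17p13 ran from 0.0055 to 0.052 (exact binomial). The share of receptor promoters with the 8-letter half-site, 0.307%, became 9.20% with the 6-letter core, since a shorter word occurs more often. The median score and width, and the count of clusters above the middle of their windows (10 to 12), moved little. No paired analysis was possible because there is 1 list and no replicate. The unknown depth limits each count.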
